A study of Mus musculus with 25 samples.

Results

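The amyloid precursor gene App, its relative Aplp2 and 7 genes of the enzymes that cut or degrade their products (Adam10, Adam17, Bace1, Psen2, Ncstn, Aph1a and Ide) were followed in microglia of mice with a neuronal deletion of Bin1. The 9 genes were taken by name from a table of 43411 genes, and all 9 passed the filter on low counts that left 12908 genes for testing. RNA of FACS-sorted microglia (CD11b+, CD45med) was sequenced from 1 library per mouse at 3 months of age in 6 WT mice (Bin1flox/wt, Thy1-Cre-), 7 heterozygous Bin1-cKO mice (Bin1flox/wt, Thy1-Cre+) and 10 homozygous Bin1-cKO mice (Bin1flox/flox, Thy1-Cre+). The mice came from a cross of the strains B6.129S6-Bin1tm2Gcp/J and FVB/N-Tg(Thy1-cre)1Vln/J, so the WT mice also carried a floxed Bin1 allele, and Cre was under the Thy1 promoter, which is meant to drive it in forebrain excitatory neurons. The WT group held 2 females and 4 males, the heterozygous group 4 and 3, and the homozygous group 5 and 5. A labelled WT female and a labelled heterozygous male had no column in the table and were not analysed here.

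APP is a membrane protein whose outer part is cut off either by an alpha-secretase, mainly ADAM10, or by the beta-secretase BACE1. The stub that remains is cut inside the membrane by gamma-secretase, a complex built around a presenilin with nicastrin (Ncstn) and APH-1 as further subunits, and only the route through BACE1 releases amyloid-beta. Microglia are known mostly for taking up and degrading amyloid-beta, while neurons are its main source in brain, but microglia also use ADAM10, ADAM17 and gamma-secretase to process their own surface receptors.

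Across the libraries, total counts ranged from 10812969 to 16734846. Defining microglia markers were abundant in every mouse, with a summed level of 10 markers between 52234 and 87317 CPM (counts divided by the TMM-scaled library size). Marker genes of other cells were far lower, with summed levels of 210 to 312 CPM for 7 astrocyte, 64.3 to 145 CPM for 6 oligodendrocyte, 26.8 to 69.8 CPM for 5 endothelial, 5.23 to 50.8 CPM for 6 border macrophage and 2.81 to 66.1 CPM for 5 monocyte and neutrophil markers, of which Mrc1 and Cldn5 were listed at 0. Bin1 itself, which checks the labels only in part because the deletion is meant to be neuronal, was at 600 to 814 CPM in WT, 629 to 747 CPM in heterozygous and 327.6 to 673 CPM in homozygous microglia, and was itself lower in homozygous than in WT microglia (log2 fold change -0.60 ± 0.12, SE, adjusted p = 0.0017 by edgeR's quasi-likelihood test), so whether the deletion spared these cells was not tested. All WT and heterozygous mice carried animal numbers of the 02xx range, whereas 6 homozygous mice were of the 03xx and 4 of the 04xx range, so genotype and range of animal numbers cannot be told apart. Mice are named below by sex (F or M) and a number within their genotype.

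The promoters of App, Aplp2 and Ncstn are shown because these genes passed the test in homozygous against WT mice. The stretches were taken from RefSeq promoter windows on GRCm38.p6, are written 5′ to 3′ along the minus strand, and end before the first annotated start of either RefSeq or GENCODE. Capitals mark the GC box GGGCGG, searched on both strands. They cover chr16:85173767-85173957 for App, chr9:31211849-31212098 for Aplp2 and chr1:172082796-172082999 for Ncstn.
App: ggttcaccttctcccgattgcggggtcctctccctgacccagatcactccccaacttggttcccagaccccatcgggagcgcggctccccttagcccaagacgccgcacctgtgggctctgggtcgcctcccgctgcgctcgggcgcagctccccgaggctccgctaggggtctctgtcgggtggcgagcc
Aplp2: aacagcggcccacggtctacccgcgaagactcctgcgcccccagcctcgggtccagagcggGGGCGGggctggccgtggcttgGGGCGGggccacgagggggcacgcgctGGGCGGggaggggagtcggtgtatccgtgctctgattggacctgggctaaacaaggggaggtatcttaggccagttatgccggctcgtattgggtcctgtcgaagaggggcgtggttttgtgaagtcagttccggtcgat
Ncstn: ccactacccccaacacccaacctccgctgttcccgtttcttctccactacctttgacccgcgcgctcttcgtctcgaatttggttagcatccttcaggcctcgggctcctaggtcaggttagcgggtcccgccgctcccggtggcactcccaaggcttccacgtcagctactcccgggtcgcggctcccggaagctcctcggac

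Of the 9 genes, 8 had an entry in the promoter table. In the 250 bases before the RefSeq start, Aplp2 and Adam10 held 3 GC boxes each, Psen2 held 2, App, Adam17 and Aph1a held 1 each, and Ncstn and Ide held none. The single match of App lay nearer the start than the stretch shown. A GC box was present in 32.9% of 27025 windows of this length. The GC content was 70.8% for App, 66.4% for Aplp2 and 63.2% for Ncstn, against a median of 52% over all windows. It was 74% for Adam10, 70.4% for Adam17, 62.8% for Psen2, 57.2% for Aph1a and 42.8% for Ide, so high values were not particular to the called genes. None of the 8 windows held a TATA box (TATAAA, in 13% of windows), a CRE (TGACGTCA, in 1.62%) or an AP-1 motif (TGANTCA, in 6.87%), each searched on both strands. These matches describe the letters only.

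App, Aplp2 and Ncstn were lower in homozygous than in WT microglia, by 29.1%, 22.7% and 21.7%, while the remaining 6 genes did not pass the test. Genotypes were compared by edgeR's quasi-likelihood test over all 12908 genes (called the edgeR test from here on), adjusted by Benjamini-Hochberg with sex as a term, and a gene was called at an adjusted p below 0.05. Thus 3 of 9 genes were called, all lower, where 7.09% of all genes tested were called lower and 12.7% in either direction. The 9 genes were chosen with earlier results of these data known, so this share is no test of the set. None of the 9 passed the stricter rule that also asks for a fold change above 1.5, which 3.40% of all genes passed. The fitted log2 fold change was below 0 for 8 of the 9 genes, with a median of -0.23, against 48.0% of all genes and a median of 0.01. In heterozygous against WT mice 8 of the 9 were also below 0 (median -0.08), where none was called. App, Aplp2, Adam10 and Adam17 varied together from mouse to mouse, so the 9 signs are not independent.

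App (ENSMUSG00000022892.10, chromosome 16 of GRCm38 from 84949685 to 85173766) ranged from 157 to 268 CPM in WT mice (median 202), from 157 to 241 CPM in heterozygous mice (median 204) and from 110 to 160 CPM in homozygous mice (median 150). Of the 10 homozygous mice, 8 lay below every WT and every heterozygous mouse, and only the lowest WT mouse (M2) and the lowest heterozygous mouse (M1) reached into the homozygous range. The level was 205.98 ± 36.1 CPM (SD, n = 6) in WT, 199 ± 25.4 CPM (SD, n = 7) in heterozygous and 146 ± 14.5 CPM (SD, n = 10) in homozygous mice. Against WT mice the homozygous log2 fold change was -0.50 ± 0.096 (SE, adjusted p = 0.0015 by the edgeR test). The homozygous mice of the 03xx range had 142 ± 17.4 CPM (SD, n = 6) and those of the 04xx range 151 ± 8.36 CPM (SD, n = 4). Fitted with either range alone, App was lower than in WT mice, with log2 fold changes of -0.53 (adjusted p = 0.0053, edgeR's quasi-likelihood test) and -0.46 (adjusted p = 0.027). All WT mice were of another range, so these fits cannot separate genotype from range.

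**Figure D1:**
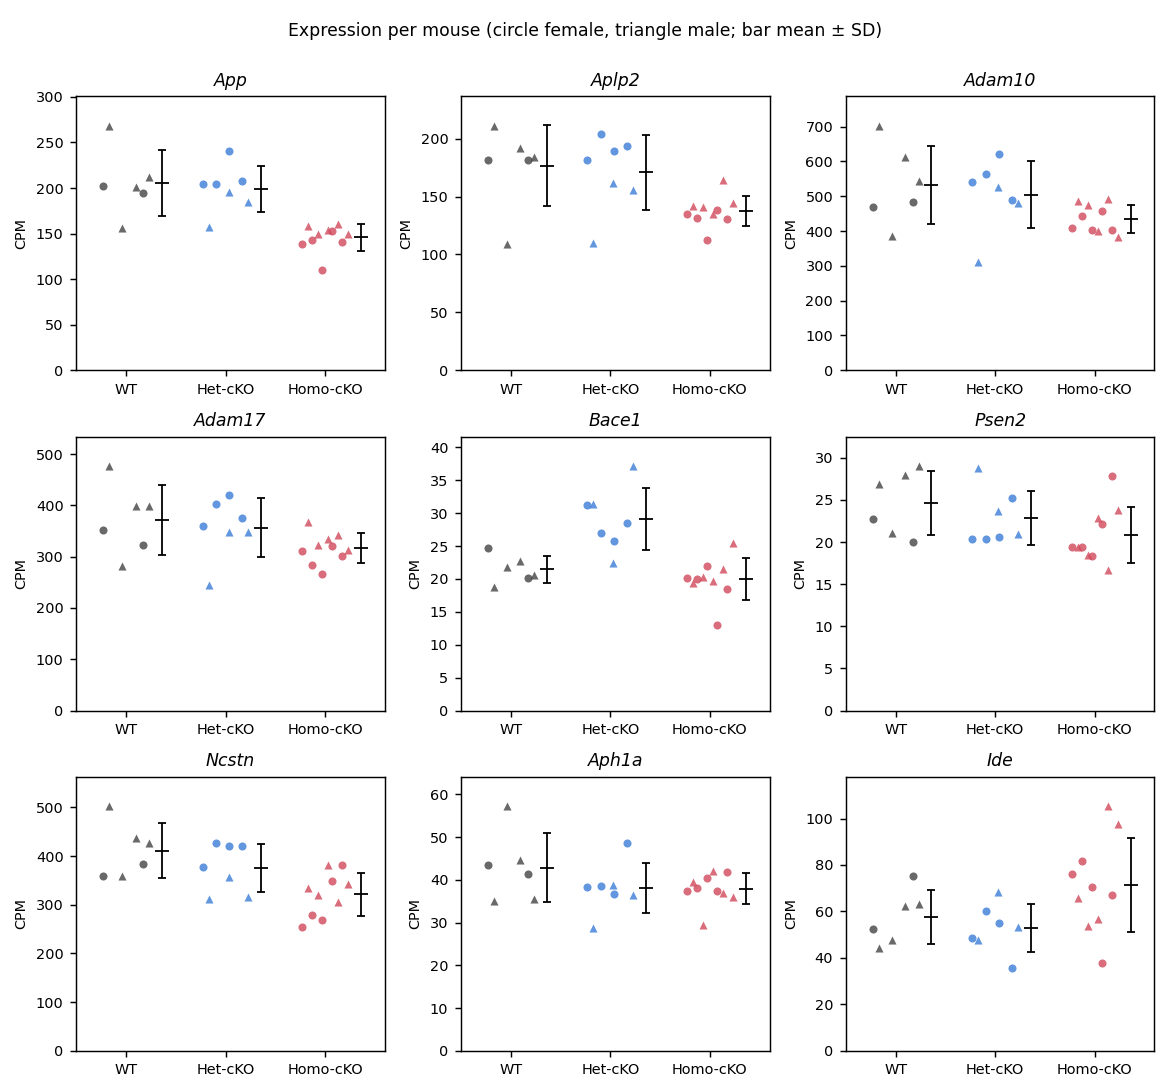
Expression of the 9 genes in each mouse as CPM (y axis, from 0), by genotype (x axis). Circles are females, triangles are males, and the black bar gives the mean with its SD for 6 WT, 7 heterozygous and 10 homozygous mice. App in homozygous mice lies between 110 and 160 CPM, below most other mice, whereas Bace1 is highest in heterozygous mice.

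The fall of App ran alongside a fall in microglia markers and in neuron markers. Over all genes tested, 7.09% were called lower and 5.66% higher against WT mice. Among other tested markers, 1 of 5 astrocyte, 2 of 4 oligodendrocyte and 1 of 1 endothelial were called lower. In WT and homozygous mice, median summed levels were 260 and 282 CPM for astrocyte markers, so that sum was not lower. They were 88.1 and 74.7 CPM for oligodendrocyte and 54.7 and 41.7 CPM for endothelial markers. Of 4 monocyte and neutrophil markers 1 was called higher, and of 5 border macrophage markers 0 were called. The summed microglia markers were lower in homozygous mice (52234 to 60966 CPM) than in WT mice (60496 to 87317 CPM) or heterozygous mice (56452 to 76264 CPM), and 6 of the 10 markers were called lower against WT mice. Expressed within each mouse as a log2 ratio to this sum, App was at -8.44 ± 0.11 (SD, n = 6) in WT and -8.58 ± 0.16 (SD, n = 10) in homozygous mice, with ranges of -8.59 to -8.32 and -8.92 to -8.35 that overlapped. With the mean of the microglia markers as a covariate, the log2 fold change of App was -0.13 ± 0.099 (SE, adjusted p = 0.50 by the edgeR test). For Aplp2, the same ratio differed between homozygous and WT mice by 0.01, and for Ncstn by -0.01. In sorted bulk microglia, fewer cells of a kind and less RNA per cell cannot be told apart, and the part of the marker change in the result was not tested.

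Neurons express App strongly, and their transcripts were present at low levels. The summed level of 10 neuron markers was 12.7 to 41.0 CPM in WT, 14.3 to 33.3 CPM in heterozygous and 5.03 to 9.33 CPM in homozygous mice, so the homozygous mice lay below all others. Snap25, a synaptic vesicle fusion protein and the most abundant of these markers in WT mice, was at a mean of 11.3 CPM in WT and 1.94 CPM in homozygous mice. Camk2a, the next in WT mice, had a smaller fall, from 4.02 to 2.96 CPM, and was the most abundant in homozygous mice. Of the 7 neuron markers that could be tested, 4 were called lower and none higher, where 7.09% of all genes were called lower. With the neuron markers as a covariate, App had a log2 fold change of -0.37 ± 0.16 (SE, adjusted p = 0.41 by the edgeR test), and only 10 of all genes were called. Within genotype and sex, App varied with the summed microglia markers (Pearson's r = 0.78, Spearman's rho = 0.61). It varied little with the summed neuron markers (r = 0.07, rho = 0.20). WT M1 and WT M2 lay farthest from the mean log2 level of App in their genotype and sex. Without them, r was 0.50 for the microglia and 0.27 for the neuron markers. These correlations over 23 mice are descriptions on values that share each library's scaling.

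**Figure D2:**
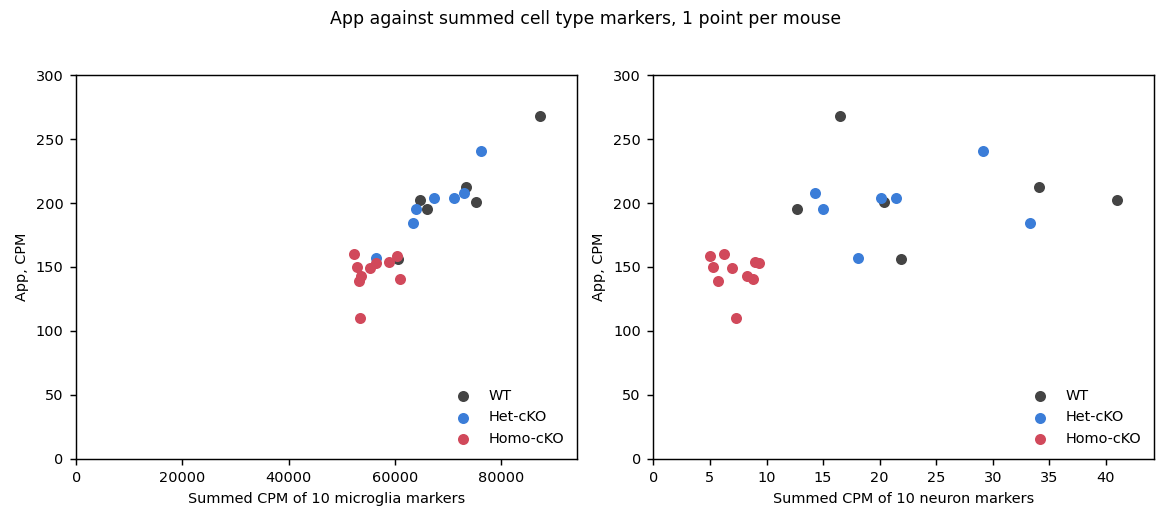
App (CPM, y axis, from 0) against the summed CPM of 10 microglia markers (left) and of 10 neuron markers (right), 1 point per mouse, coloured by genotype. Homozygous mice form a cluster at 52234 to 60966 CPM of microglia markers together with the lowest WT and heterozygous mice, and at 5.03 to 9.33 CPM of neuron markers they lie below all others.

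Aplp2 (ENSMUSG00000031996.14, chromosome 9 from 31149557 to 31211815), a homologue of App that is cut by the same enzymes, ranged from 109 to 211.2 CPM in WT mice (median 183), from 110 to 204 CPM in heterozygous mice (median 181) and from 112 to 164 CPM in homozygous mice (median 137). Every homozygous mouse lay under the WT median, but none lay under all WT mice, since WT M2 had the lowest value of all. The log2 fold change against WT mice was -0.37 ± 0.12 (SE, adjusted p = 0.037 by the edgeR test). This call was the least stable of the 3, since leaving out single mice ended it in 9 of 23 fits, with adjusted p up to 0.13 without WT M1, and it was lost with limma-voom (adjusted p = 0.054). The log2 ratio of App to Aplp2 counts within a mouse does not depend on scaling. It was 0.23 ± 0.17 (SD, n = 6) in WT, 0.24 ± 0.17 (SD, n = 7) in heterozygous and 0.08 ± 0.08 (SD, n = 10) in homozygous mice, and its ranges of 0.07 to 0.52, 0.00 to 0.52 and -0.04 to 0.19 overlapped.

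Among the alpha-secretases, Adam10 (ENSMUSG00000054693.12, chromosome 9 from 70678997 to 70780229), which also cuts Notch and many other surface proteins, ranged from 385 to 703 CPM in WT mice (median 514), from 311 to 621 CPM in heterozygous mice (median 526) and from 382 to 493 CPM in homozygous mice (median 425). Adam17 (ENSMUSG00000052593.13, chromosome 12 from 21323509 to 21373632), the enzyme that releases TNF from the cell surface, ranged from 281 to 477 CPM in WT mice (median 375), from 244 to 420 CPM in heterozygous mice (median 360) and from 266 to 368 CPM in homozygous mice (median 317). For both genes all 10 homozygous mice lay under the WT median, while the ranges overlapped. WT M2 and heterozygous M1 had the lowest values of their genotypes, and WT F1, WT F2 and heterozygous M4 lay within the homozygous range. The log2 fold changes against WT mice were -0.29 for Adam10 (SE 0.12, adjusted p = 0.11 by the edgeR test) and -0.23 for Adam17 (SE 0.10, adjusted p = 0.15). With WT M2 and heterozygous M1 both left out, a choice made after seeing the data, Adam10 (-0.36, adjusted p = 0.0082) and Adam17 (-0.29, adjusted p = 0.015) were called in the same test, and 5 of 9 genes were then lower than in WT mice, where 13.6% of all genes were called in either direction.

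Bace1 (ENSMUSG00000032086.10, chromosome 9 from 45838580 to 45864399), the beta-secretase, was highest in heterozygous mice. It ranged from 18.8 to 24.6 CPM in WT mice (median 21.2), from 22.4 to 37.2 CPM in heterozygous mice (median 28.5) and from 12.9 to 25.4 CPM in homozygous mice (median 20.1). Of the 7 heterozygous mice 6 lay above every WT mouse, and 9 of the 10 homozygous mice lay below every heterozygous mouse. Homozygous and WT mice overlapped, with 2 homozygous mice below and 1 above the WT range and a log2 fold change of -0.09 (95% interval -0.31 to 0.13, adjusted p = 0.66 by the edgeR test). In this library type, which carries no strand information, reads of Bace1 cannot be told apart from those of Rnf214 on the opposite strand where the genes overlap, and 31.4% of the 25-base sequences of Bace1 transcripts occur in another gene too, 15% in Rnf214 and 13.9% in Gm49338, which has no row in the table used here. Rnf214 had means of 24.6, 30.2 and 26.5 CPM in WT, heterozygous and homozygous mice. It was called in none of the 3 genotype comparisons (adjusted p = 0.15 to 0.52 by the edgeR test). The same limit holds where Ncstn overlaps Copa and Adam17 overlaps Iah1, each on the opposite strand. Of the 25-base sequences of Ncstn, 9.62% occur in another gene, 4.26% in Copa. For Adam17, 12.3% occur in another gene, 3.93% in Iah1.

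Of the gamma-secretase genes, Ncstn (ENSMUSG00000003458.10, chromosome 1 from 172066013 to 172082795), the subunit that recognizes substrates, ranged from 359 to 502 CPM in WT mice (median 405), from 312 to 427 CPM in heterozygous mice (median 377) and from 255 to 382 CPM in homozygous mice (median 327). Here 8 of 10 homozygous mice lay below every WT mouse, and 4 of them also below every heterozygous mouse. The log2 fold change against WT mice was -0.35 ± 0.098 (SE, adjusted p = 0.019 by the edgeR test). It was lost without WT M1 (adjusted p = 0.075), the highest WT mouse, and with a score of immediate-early genes as a covariate (-0.25, adjusted p = 0.20). These genes, induced by cell activation or tissue dissociation, had a summed level of 325 to 441 CPM in WT mice and of 427 to 9833 CPM in homozygous mice. Values of 5774 to 9833 CPM were found in F1, F2, M1 and M2. Those 4 mice were all of the 03xx range, so leaving them out is not separate from the split by range. App kept its call under that covariate, with a log2 fold change of -0.51 (adjusted p = 0.012), and without those 4 mice (-0.51, adjusted p = 0.0090), where Ncstn (-0.29, adjusted p = 0.096) and Aplp2 (-0.37, adjusted p = 0.11) lost theirs.

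Psen2 (ENSMUSG00000010609.13, chromosome 1 from 180227004 to 180263438), one of the presenilins that form the catalytic core, ranged from 20.02 to 29.03 CPM in WT mice (median 24.8), from 20.3 to 28.8 CPM in heterozygous mice (median 21.0) and from 16.7 to 27.9 CPM in homozygous mice (median 19.5). Although 6 homozygous values were lower than in any other mouse, the log2 fold change of -0.22 against WT mice (SE 0.11, adjusted p = 0.21 by the edgeR test) did not pass. Aph1a (ENSMUSG00000015750.13, chromosome 3 from 95893969 to 95898288), a scaffold subunit, ranged from 35.0 to 57.2 CPM in WT mice, from 28.7 to 48.7 CPM in heterozygous mice and from 29.5 to 42.1 CPM in homozygous mice. Its values overlapped widely (log2 fold change -0.19, 95% interval -0.39 to 0.00, adjusted p = 0.22). Because 42.8% of the 25-base sequences of Aph1a transcripts also occur in other genes, among them the pseudogene Gm15429, which is listed at 0 in every group, its level is uncertain.

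Ide (ENSMUSG00000056999.12, chromosome 19 from 37268743 to 37337852), the insulin-degrading enzyme that also degrades amyloid-beta, was the only one of the 9 genes with a higher fitted level in homozygous than in WT mice. It ranged from 44.2 to 75.3 CPM in WT mice (median 57.3), from 35.8 to 68.3 CPM in heterozygous mice (median 53.5) and from 37.7 to 105 CPM in homozygous mice (median 68.8). The homozygous mice were the most variable, with 4 of 10 above every other mouse and F4 below every WT mouse. The difference from WT mice was within this spread (log2 fold change 0.32, SE 0.17, adjusted p = 0.24 by the edgeR test).

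**Figure D3:**
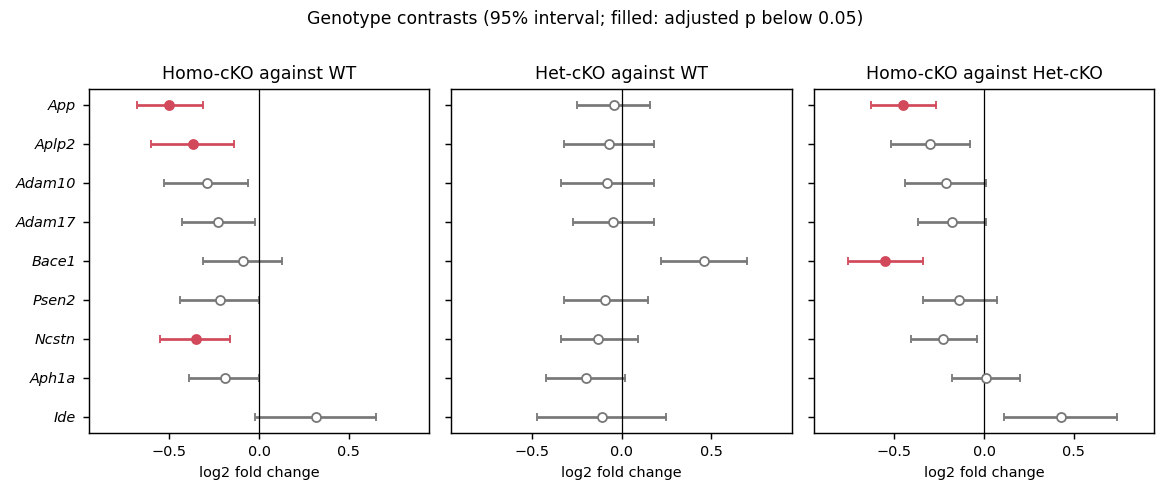
Log2 fold change of each gene (x axis) in the 3 genotype comparisons with its 95% interval, by the edgeR test. Filled points have an adjusted p below 0.05, which are App, Aplp2 and Ncstn for homozygous against WT mice and App and Bace1 for homozygous against heterozygous mice.

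In heterozygous against WT mice no gene passed the test, and Bace1 had the largest fitted difference. None of the 9 was called against WT mice by edgeR's quasi-likelihood test, as were none of all genes (0%), where 7.73% had an unadjusted p below 0.05. DESeq2 called 3 genes and limma-voom called 0, none of them among the 9. For App the log2 fold change was -0.04 (95% interval -0.25 to 0.16), which lies wholly above the homozygous estimate of -0.50. For Bace1 it was 0.46 (95% interval 0.22 to 0.70), with an unadjusted p of 8.9e-04 that did not pass adjustment over all genes (adjusted p = 0.45, edgeR's quasi-likelihood test), and over the 23 fits without 1 of the mice it stayed between 0.38 and 0.53. The other 7 genes had log2 fold changes between -0.20 (Aph1a) and -0.05 (Adam17).

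Homozygous against heterozygous mice, which both carry Thy1-Cre, differed in App and Bace1. In this comparison 2 of 9 genes were called, a share not above the 22.7% of all genes called in either direction. Both were lower in homozygous mice, as were 11.7% of all genes. App had a log2 fold change of -0.45 ± 0.092 (SE, adjusted p = 0.0012 by the edgeR test) and Bace1 of -0.55 (SE 0.11, adjusted p = 8.0e-04). Bace1 was highest in heterozygous mice, and its homozygous level was near that of WT mice (log2 fold change -0.09, 95% interval -0.31 to 0.13). Aplp2 (-0.30, adjusted p = 0.056), Ncstn (-0.23, adjusted p = 0.081) and Ide (0.43, adjusted p = 0.059) came close to the threshold without passing it. Without heterozygous M1, whose App, Aplp2, Adam10, Adam17 and Ncstn were the lowest of its genotype, 6 genes were called, as Aplp2, Adam10, Adam17 and Ncstn were added, where 20.6% of all genes were called. Both comparisons of homozygous mice share these mice, and both comparisons with WT share the WT mice.

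The sexes did not differ detectably in these genes. Between females and males 0 of 9 genes were called by edgeR's quasi-likelihood test, against 0.0852% of all genes, and none had an unadjusted p below 0.05. The fitted differences of females from males lay between -0.09 and 0.10 on the log2 scale. For the homozygous effect in females minus that in males, 0 of 9 genes were called, as were 0 of all genes (4.99% had an unadjusted p below 0.05, and DESeq2 called 1). For App this difference was -0.10 (95% interval -0.45 to 0.26), so with 2 WT females an effect in 1 sex cannot be set apart from that in the other.

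Scaled to the length of the principal transcript, nicastrin and the alpha-secretases stood highest and the beta-secretase lowest. In WT mice Ncstn was at 142 ± 19.2 CPM per kilobase (SD, n = 6), Adam10 at 116 ± 24.6, Adam17 at 83.7 ± 15.4, App at 64.9 ± 11.4 and Aplp2 at 48.6 ± 9.62. Lower levels per kilobase were found for Aph1a (15.0 ± 2.83), Psen2 (12.2 ± 1.89), Ide (11.6 ± 2.33) and Bace1 (3.54 ± 0.342). Neighbours in this order overlapped between mice, except that the first 5 genes lay above the next 3 and Bace1 lay below all others. In homozygous mice App was at 45.9 ± 4.58 CPM per kilobase (SD, n = 10), and Ide (14.4 ± 4.08) stood above Aph1a (13.3 ± 1.27) and Psen2 (10.3 ± 1.64), with overlapping ranges. Over the union of all annotated exons, a length chosen after seeing the data, Adam10 stood first and App fell from rank 4 to rank 5, under Aplp2. The WT mean of App was then 15.8 CPM per kilobase, beside 12.4 for Aph1a, so the step below the first 5 genes was small by that length.

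Within genotype and sex, App varied from mouse to mouse most like Adam17, Aplp2 and Adam10 among these genes. After subtraction of group means, Pearson's r with App over 23 mice was 0.88 for Adam17, 0.82 for Aplp2 and 0.78 for Adam10, and 0.59 for Ncstn. It was 0.21 for Psen2, -0.05 for Ide, -0.40 for Aph1a and -0.48 for Bace1. Spearman's rho was lower for most of these pairs (0.77 for Adam17, 0.67 for Aplp2, 0.71 for Adam10, 0.44 for Ncstn, 0.04 for Psen2, 0.09 for Ide, -0.10 for Aph1a and -0.44 for Bace1). Without WT M1 and WT M2, r was 0.76 for Adam17, 0.65 for Aplp2 and 0.60 for Adam10, and 0.09 for Aph1a. Among 9809 genes whose log2 CPM averaged 2 or more, the 5 most like App were Clptm1 (r = 0.89), Tmem184b (r = 0.88), Erap1 (r = 0.88), Adam17 and Tm9sf4 (r = 0.87). The median r over these genes was 0.01, with 0.59 at the 95th percentile, and the values share each library's scaling.

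Beyond the 9 genes, 45 others that act on APP or on its secretases were examined, of which 36 could be tested. Against WT mice, 9 of these 36 were called lower and 1 higher in homozygous mice, where 7.09% of all genes tested were called lower and 5.66% higher. The list was chosen with earlier results of these data known, so its share is no test of the list. The median log2 fold change of the 36 was -0.12. Among 12 sorting and adaptor genes, 3 were lower and 1 higher. Lrp1, an endocytic receptor that binds APP and amyloid-beta, was at 746 ± 125 CPM in WT (SD, n = 6) and at 458 ± 105 CPM in homozygous mice (SD, n = 10), a log2 fold change of -0.69 (adjusted p = 0.0012 by the edgeR test), with 9 of 10 homozygous mice below all WT mice. Sort1, a sorting receptor, fell by 0.43 on the log2 scale (adjusted p = 0.0070), while Vps26a, a retromer subunit that returns cargo from endosomes, rose by 0.22 (adjusted p = 0.038). The call of Vps26a, the only higher one, was lost in 9 of 23 fits without 1 of the mice (WT F1, M1, M2, M3 or M4, or homozygous F1, F5, M2 or M3) and in 7 of 16 other alternatives.

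Of 5 amyloid-beta degrading enzymes tested, 2 were lower. The endothelin-converting enzyme Ece1 went from 29.6 ± 5.70 CPM in WT to 18.3 ± 3.81 CPM in homozygous mice (SD, n as above), a log2 fold change of -0.70 (adjusted p = 0.0012 by the edgeR test). Ctsd, the lysosomal protease cathepsin D, fell by 0.32 on the log2 scale (adjusted p = 0.0083). Ctsb, cathepsin B and the most abundant pathway gene not called, had a log2 fold change of -0.19 (adjusted p = 0.20). Of 5 proteins that hold back secretases 3 were lower, among them Rtn3 (-0.30, adjusted p = 0.012), which binds BACE1, and Itm2b (-0.22, adjusted p = 0.038), a membrane protein that binds APP, whereas its relative Itm2c missed the threshold (-0.21, adjusted p = 0.063). Itm2b lost its call in 6 of 23 fits without 1 of the mice (WT M1, M3 or M4, or homozygous F2, M4 or M5) and in 9 of 16 other alternatives, and Rtn3 without WT M1 and in 6 of 16 other alternatives. Tspan14, a tetraspanin that escorts ADAM10 to the surface, was lower by 0.36 on the log2 scale (adjusted p = 0.0028), with all 10 homozygous mice below all WT mice, as 1.14% of all genes were. None of the 4 further gamma-secretase genes (adjusted p = 0.089 to 0.91) and none of the 4 genes of ADAM17 maturation (adjusted p = 0.100 to 0.93) was called.

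**Figure D4:**
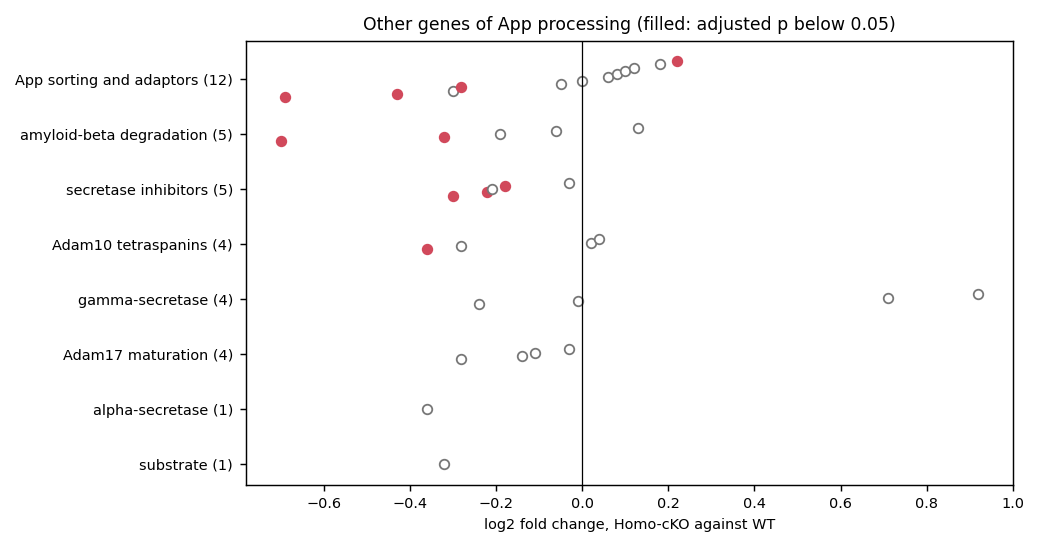
Log2 fold change in homozygous against WT mice (x axis) of 36 further genes of App processing, 1 point per gene, grouped by role with the number tested in brackets. Filled points have an adjusted p below 0.05, and 9 of these lie below 0 and 1 (Vps26a) above.

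Of 14 other surface proteins that are shed by these secretases, 13 could be tested. Of these, 7 were lower and 3 higher in homozygous than in WT mice, beside the 7.09% lower and 5.66% higher of all genes. This list too was chosen with earlier results of these data known, so its share is no test of the list. The interleukin 6 receptor Il6ra fell from 464 ± 32.4 CPM in WT mice (SD, n = 6) to 331 ± 27.0 CPM in homozygous mice (SD, n = 10), a log2 fold change of -0.50 (adjusted p = 9.0e-05 by the edgeR test), and Trem2, a lipid receptor of microglia, fell from 2360 ± 154 CPM to 1707 ± 281 CPM (-0.48, adjusted p = 0.0010). For both, all 10 homozygous mice lay below all WT mice, as did 1.14% of all genes. Csf1r, the growth factor receptor microglia depend on and also one of the microglia markers used above, fell by 0.50 on the log2 scale (adjusted p = 0.0031). Cd44, an adhesion receptor, rose from 0.0504 ± 0.0619 CPM to 1.17 ± 0.743 CPM (adjusted p = 0.0020), a level of few counts whose fold change is uncertain. In heterozygous mice, no gene of either list was called against WT mice.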

How the data were processed

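RNA of sorted microglia from 23 mice was analysed. Per the paper's methods, the authors mapped single-end reads to mm10 using OSA4 (OmicSoft) with Ensembl R84 genes, and RSEM estimated the counts. The deposited values are expected counts per gene, normalized neither for depth nor for length. The library kit keeps no strand.

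Expected counts were rounded. Genes were kept with filterByExpr by genotype (12908 genes), scaled by TMM and tested with edgeR 4.0.16 (quasi-likelihood, genotype and sex in 1 fit, R 4.3.3), which was tested on simulated data. Standard errors come from the fold change and its statistic, and 95% intervals are normal ones around the estimate. Symbols, positions and principal transcripts come from GENCODE on GRCm38. Of 43411 identifiers 42929 were matched and 482 were not. Totals of 10812969 to 16734846 counts limit precision for genes of a few CPM.

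The 9 genes, the other lists and the tests were chosen with earlier results of these data known. Named from the other lists were the called genes with the smallest p in homozygous against WT mice (up to 8 pathway and 4 shed genes) and the 2 most abundant uncalled pathway genes. Neighbours of App in expression were the 5 genes with the highest r. Alternatives were DESeq2 1.42.0, limma-voom (limma 3.58.1), other scalings, filters, covariates, call rules and subsets of mice, of which 4 were added after seeing the data. The labels give each library its own animal number.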

Additional observations from a re-analysis of the deposited data

Results flagged for a closer look

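In 27 combinations of gene and genotype, the highest and lowest mouse was compared with the rest by Dixon's test, which flags about 1 in 20 by chance, and 4 were flagged. Homozygous F3 had the lowest App of all mice (110 CPM, against 139 to 160 CPM in the other homozygous mice). WT M2 had an Aplp2 level of 109 CPM, against 181.5 to 211.2 CPM in the other WT mice. Heterozygous M1 had an Adam17 level of 244 CPM, against 347 to 420 CPM in the rest of its genotype. Homozygous M2 had an Aph1a level of 29.5 CPM, against 35.97 to 42.15 CPM in the others. WT M2 and heterozygous M1 also had the lowest summed microglia markers of their genotypes (60496 and 56452 CPM). The part of that in their low App, Aplp2, Adam10 and Adam17 was not tested.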

How the results depend on the processing

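App stayed lower and called in homozygous against WT mice under all alternatives but 3, with log2 fold changes of -0.56 to -0.41 over the 23 fits that left out 1 mouse. The exceptions were the neuron marker covariate (-0.37), the microglia marker covariate (-0.13) and the rule that adds a fold change above 1.5, which App did not reach. The count of 3 called genes fell to 0 with each of these 3, and to 1 (App) with the immediate-early covariate, with homozygous mice of the 04xx range alone, or without homozygous F1, F2, M1 and M2. Those last alternatives overlap, as F1, F2, M1 and M2 had the high immediate-early levels and were all of the 03xx range. The count rose to 5 without WT M2 and heterozygous M1, and ranged from 1 (without WT M1) to 4 over the fits leaving out 1 mouse. Aplp2 turned to 0.06 with the microglia marker covariate. Against heterozygous mice, the count of 2 became 4 with DESeq2, 0 with the neuron marker covariate, 1 (Bace1) with the microglia marker covariate and 6 without WT M2 and heterozygous M1, and ranged from 2 to 6 over the fits leaving out 1 mouse. The count was 0 under every alternative run for heterozygous against WT mice, for the sexes and for the sex difference. Over all genes, called genes in homozygous against WT mice numbered 1645 in the test as described and 10, 285, 920, 806, 1060 and 1062 with the neuron, microglia and immediate-early covariates, the 04xx range alone, without WT M1 and without the 4 homozygous mice. The other named pathway and shed genes (Lrp1, Ece1, Tspan14, Sort1, Ctsd, Il6ra, Trem2, Cd44 and Csf1r) kept their call in all 23 fits without 1 mouse and lost it in 1 to 4 of 16 other alternatives. Scaling by library totals alone moved the median log2 fold change of all genes to 0.11 and gave -0.39 for App. The rank of App per kilobase moved from 4 to 5 with the length of all exons. The cause of these changes was not tested. Homozygous mice lay below all WT and heterozygous mice in neuron markers, so this covariate and the homozygous genotype cannot be told apart. No paired analysis was possible because replicate numbers were given in accession order and pair no mice.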
